A study of Mus musculus with 6 samples.

Results

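Genes that mark hepatocytes, the parenchymal cells of the liver, were followed through 6 arrays of hepatic stellate cells from mice. These pericytes store vitamin A and become collagen-producing myofibroblasts in culture. The list held 36 genes for plasma proteins and metabolic enzymes, chosen by name with earlier results of these data known. A gene was read from the probe set whose annotation gives that gene alone, and from the brightest such probe set where there were several. Of the 36 genes, 34 had such a probe set, out of 22180 genes on the array, and 32 were bright enough to be tested, out of 15526. Trf and Serpina3k were not analysed here. Kng1 and Fabp1 lay below the signal limit, a mean log2 signal of 4.70, and are given by their values without a test.

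Albumin, the fibrinogen chains, the apolipoproteins and the antiproteases of plasma are made by hepatocytes and secreted into blood. Their genes are held at high levels by a network of transcription factors that includes HNF1, HNF4, HNF3 (the FoxA family) and C/EBP, and hepatocytes lose much of this programme when they are kept on plastic. The major urinary proteins are carriers of pheromones made by the liver, and cytochromes such as Cyp2e1 and Cyp1a2 detoxify small molecules in the hepatocytes around the central vein. Stellate cells are isolated from digested liver, whose cells are mostly hepatocytes.

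Young mice were 8 to 11 weeks old and old mice 6 to 9 months old, and each sample was a pool of cells from 5 mice. The labels name no strain, sex, genotype or purification of the cells. Cells of both ages came from normal liver and were taken as quiescent after 12 h on a plate, or as activated after more than 20 days of culture on uncoated plastic. Activated cells received the vehicle dimethyl sulfoxide or 10 µM of C-82. This compound, the active metabolite of PRI-724, blocks the binding of beta-catenin to its coactivator CBP. Samples given C-82 are called PRI-724 here. The time of exposure was not given in the sources used here. With 1 array for each combination of age and state there is no spread within a group, and the number of arrays limits the precision.

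Signals are log2 values after RMA (robust multi-array average), a method that corrects background and summarises the probes of a gene. A difference of 1 is 2-fold. A level can be compared between arrays for a gene, but not between genes, because each probe set has its own brightness. In RNA from mixed cells, fewer hepatocytes and less hepatocyte RNA per cell cannot be told apart. The young PRI-724 array had a narrower spread than the other arrays, with an interquartile range of 1.71 over the tested genes against 2.11 to 2.43. The 15 markers of stellate cells had mean log2 signals between 7.10 and 7.98 on the 6 arrays. Between the quiescent arrays 8 of these 15 were higher and 7 lower in old cells, with differences from -1.39 to 0.69. At least 2-fold higher were 0 (against 3.16% of all tested genes) and at least 2-fold lower were 2 (against 2.98%). Rgs5, a pericyte gene among them, stood at 10.26 on the young and 10.47 on the old quiescent array.

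The starts of a few of these genes show the letters that hepatocyte factors are known to read. The 150 bases before the start are printed from RefSeq's table for GRCm38.p6 for Alb and the alpha-1-antitrypsin copies Serpina1c and Serpina1d. They are examples of genes that hold such letters. All 3 rose with age and fell with culture below, as did Hpx, Mup3 and Ambp among others. Within 250 bases Mup3 and Ambp held 0 of the motifs searched, and the 1 match of Hpx began 200 bases before its start. Capitals mark GTTAAT, a part of the HNF1 site, and TTGCNNAA, a C/EBP site, on either strand. The windows are chr5:90460720-90460869 on the plus strand for Alb, chr12:103904951-103905100 on the minus strand for Serpina1c and chr12:103773634-103773783 on the minus strand for Serpina1d.
Alb: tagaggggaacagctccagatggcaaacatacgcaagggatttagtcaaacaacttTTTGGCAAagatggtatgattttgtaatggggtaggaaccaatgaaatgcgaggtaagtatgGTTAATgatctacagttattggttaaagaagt
Serpina1c: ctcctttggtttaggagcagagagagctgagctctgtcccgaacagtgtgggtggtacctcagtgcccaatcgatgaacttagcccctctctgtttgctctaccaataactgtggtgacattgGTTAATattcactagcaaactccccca
Serpina1d: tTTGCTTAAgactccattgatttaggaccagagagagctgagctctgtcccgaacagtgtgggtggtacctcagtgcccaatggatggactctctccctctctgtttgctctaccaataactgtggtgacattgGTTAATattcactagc
In Alb the HNF1 letters begin 32 bases before the start and the C/EBP letters 94 bases before it. Serpina1c and Serpina1d hold the HNF1 letters 27 and 16 bases before their starts. Over 250 bases the windows of this pair match at 180 of 239 positions (75.3%) when shifted by 11 bases, and their longest identical run is 55 bases. Probes may be shared between such copies, and between the major urinary protein genes, so their signals are not independent. Of the 28 genes of the list with a window of 250 bases, 9 held GTTAAT (32.1%, against 7.49% of 27025 genes with a window) and 10 held TTGCNNAA (35.7%, against 10.8%). TGTTTAC, an HNF3 site, was in 3 windows (10.7%, against 3.54%), and CAAAGTCC, an HNF4 site, was in that of Cyp3a11 alone (3.57%, against 1.38%). TATAAA was in 7 windows (25%, against 14.3%). Each motif was searched on both strands, and GTTAAT is contained in the full HNF1 palindrome, which was in 0 of the 28 windows and in 0.152% of all windows. A match in a window is a description of its letters.

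The first comparison set old against young cells in the quiescent state. Nearly every hepatocyte gene was far brighter on the old array. The old quiescent array was the highest of the 6 for 33 of the 34 genes with a probe set, and for 31 of 32 tested members against 11.8% of all tested genes. Between the quiescent arrays 33 of 34 were at least 2-fold higher in old cells and 0 were at least 2-fold lower. Among tested members it was 31 of 32, against 3.16% of all tested genes, and 2.98% of all tested genes were at least 2-fold lower. The median difference over the tested members was 3.17 log2 units, and that of all tested genes 0.03. At least 4-fold higher were 26 of the 34 (25 of 32 tested, against 0.509%) and at least 8-fold higher were 18 (18 of 32, against 0.206%). These are differences of 1 array from 1 array, so they carry no test. Fga, Fgg and Serpinc1 passed the signal limit only through the old quiescent array.

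**Figure D1:**
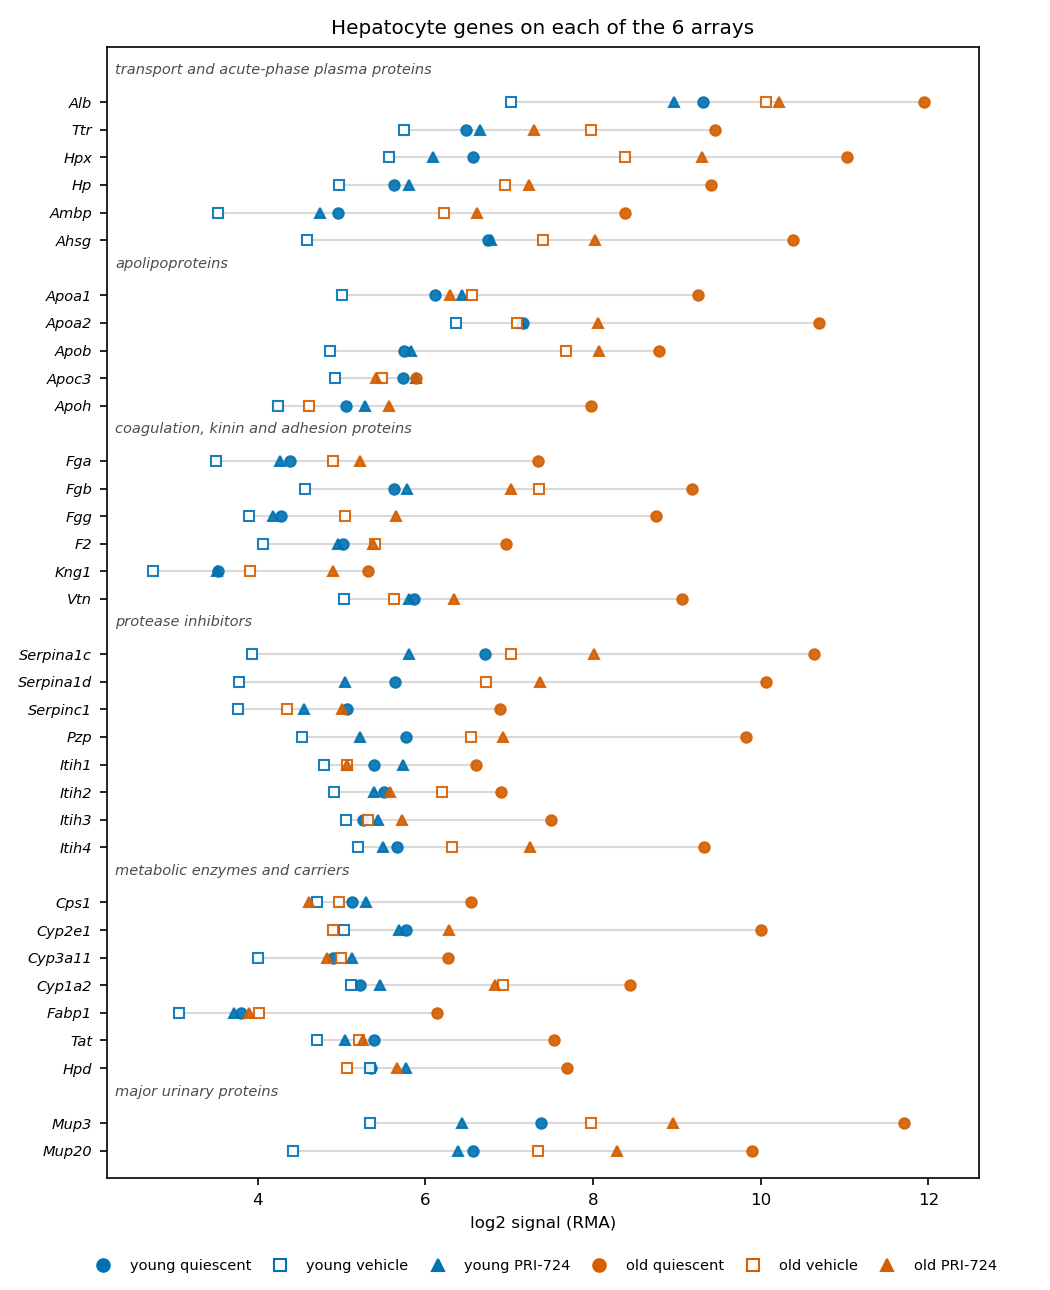
Log2 signal (x axis) of the 34 hepatocyte genes with a probe set, grouped by role (y axis), with 1 point for each of the 6 arrays and a grey line from the lowest to the highest array. Old quiescent cells (filled orange circles) lie furthest right for 33 genes and young vehicle cells (open blue squares) furthest left for 31.

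The carriers and acute-phase proteins of plasma showed the pattern most plainly. Alb, the main osmotic and carrier protein of plasma, had log2 signals of 9.32, 7.02 and 8.96 in young quiescent, vehicle and PRI-724 cells and 11.95, 10.07 and 10.22 in old ones. Every old array lay above every young one, and within each age the quiescent array was the brightest. Hpx, hemopexin, which binds free heme, stood at 6.57, 5.57 and 6.09 in young quiescent, vehicle and PRI-724 cells and 11.03, 8.38 and 9.30 in old ones. The lowest old value was higher than the highest young value by more than a log2 unit. Ambp, the precursor of alpha-1-microglobulin and of bikunin, stood at 4.96, 3.53 and 4.74 in young quiescent, vehicle and PRI-724 cells and 8.38, 6.22 and 6.62 in old ones. Ahsg, fetuin-A, an inhibitor of mineral deposition, stood at 6.75, 4.59 and 6.79 in young quiescent, vehicle and PRI-724 cells and 10.39, 7.40 and 8.02 in old ones. In both genes the old groups again lay above the young ones, and the young vehicle array was the lowest by over a log2 unit. Hp, haptoglobin, which binds free hemoglobin, stood at 5.63, 4.97 and 5.80 in young quiescent, vehicle and PRI-724 cells and 9.40, 6.95 and 7.24 in old ones. Ttr, transthyretin, which carries thyroid hormone and retinol-binding protein, stood at 6.49, 5.75 and 6.66 in young quiescent, vehicle and PRI-724 cells and 9.45, 7.97 and 7.29 in old ones. For these carriers, too, old and young arrays did not overlap. The quiescent age differences of the 6 genes ran from 2.63 for Alb to 4.46 for Hpx.

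The apolipoproteins, the protein shell of lipoprotein particles, were less alike. Apob, the structural protein of very-low-density lipoprotein, stood at 5.75, 4.87 and 5.82 in young quiescent, vehicle and PRI-724 cells and 8.79, 7.67 and 8.08 in old ones. Its old arrays stayed close to each other and all lay above the young ones. Apoa2 of high-density lipoprotein stood at 7.16, 6.37 and 7.14 in young quiescent, vehicle and PRI-724 cells and 10.69, 7.09 and 8.06 in old ones. Apoa1, its main protein, stood at 6.11, 5.01 and 6.44 in young quiescent, vehicle and PRI-724 cells and 9.25, 6.55 and 6.29 in old ones. In Apoa2 and Apoa1 the old quiescent array was the highest by over 2 log2 units, and 1 old activated array lay within the range of the young arrays, that of vehicle for Apoa2 and that of PRI-724 for Apoa1. Apoh, which binds anionic phospholipids, stood at 5.05, 4.24 and 5.28 in young quiescent, vehicle and PRI-724 cells and 7.97, 4.61 and 5.57 in old ones and also had old activated values next to young ones. Apoc3, an inhibitor of lipoprotein lipase, stood at 5.74, 4.93 and 5.89 in young quiescent, vehicle and PRI-724 cells and 5.89, 5.48 and 5.41 in old ones. It was the 1 gene with a probe set whose highest array was not old quiescent, and its quiescent age difference was 0.15.

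The clotting and adhesion proteins ranged widely in quiescent age difference, from 1.79 for Kng1 to 4.48 for Fgg. Fgg, the gamma chain of fibrinogen, stood at 4.28, 3.90 and 4.19 in young quiescent, vehicle and PRI-724 cells and 8.76, 5.04 and 5.65 in old ones, a difference of 22.3-fold between the quiescent arrays. Fgb, the beta chain, stood at 5.63, 4.56 and 5.78 in young quiescent, vehicle and PRI-724 cells and 9.18, 7.35 and 7.03 in old ones. Fga, the alpha chain, stood at 4.39, 3.50 and 4.26 in young quiescent, vehicle and PRI-724 cells and 7.34, 4.90 and 5.22 in old ones. The 3 chains form 1 protein, and their genes lie together on chromosome 3. In each of them old and young arrays did not overlap, but the vehicle age difference was 2.79 for Fgb against 1.41 for Fga and 1.15 for Fgg. F2, prothrombin, stood at 5.02, 4.07 and 4.96 in young quiescent, vehicle and PRI-724 cells and 6.96, 5.39 and 5.37 in old ones. Kng1, the kininogen that releases bradykinin, stood at 3.53, 2.75 and 3.52 in young quiescent, vehicle and PRI-724 cells and 5.32, 3.91 and 4.90 in old ones and was not tested. Vtn, vitronectin, an adhesion protein that also binds the plasminogen activator inhibitor, stood at 5.86, 5.03 and 5.81 in young quiescent, vehicle and PRI-724 cells and 9.06, 5.62 and 6.34 in old ones. Old and young arrays did not overlap for F2 and Kng1, while the old vehicle value of Vtn lay below the young quiescent one.

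Among the protease inhibitors the alpha-1-antitrypsin copies shown above stood out. Serpina1c had log2 signals of 6.71, 3.94 and 5.80 in young quiescent, vehicle and PRI-724 cells and 10.64, 7.02 and 8.01 in old ones. Serpina1d had 5.63, 3.77 and 5.04 in young quiescent, vehicle and PRI-724 cells and 10.06, 6.72 and 7.36 in old ones. In both, all old arrays lay above all young arrays, and the quiescent age differences were 3.93 and 4.42 (15.3-fold and 21.4-fold). Pzp, an alpha-2-macroglobulin of plasma, stood at 5.77, 4.53 and 5.22 in young quiescent, vehicle and PRI-724 cells and 9.82, 6.54 and 6.92 in old ones. Serpinc1, antithrombin, stood at 5.07, 3.77 and 4.55 in young quiescent, vehicle and PRI-724 cells and 6.89, 4.35 and 5.01 in old ones. Old and young arrays did not overlap for Pzp, and for Serpinc1 they did. The inter-alpha-trypsin inhibitor heavy chains went apart. Itih4 stood at 5.66, 5.20 and 5.49 in young quiescent, vehicle and PRI-724 cells and 9.33, 6.31 and 7.25 in old ones. Itih3 stood at 5.26, 5.06 and 5.43 in young quiescent, vehicle and PRI-724 cells and 7.50, 5.32 and 5.72 in old ones. Itih1 and Itih2 had quiescent age differences of 1.22 and 1.39, the smallest of the inhibitors. Itih1, Itih3 and Itih4 lie on chromosome 14, and only Itih4 of these 3 had old arrays that all lay above the young ones.

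The metabolic enzymes were high on the old quiescent array and low on most of the others. Cyp2e1, a cytochrome that oxidises ethanol and paracetamol, stood at 5.78, 5.03 and 5.69 in young quiescent, vehicle and PRI-724 cells and 10.00, 4.90 and 6.29 in old ones. The old quiescent signal was 18.8-fold above the young one, and in vehicle-treated culture the old array was the lowest of all 6. Hpd, an enzyme of tyrosine breakdown, stood at 5.36, 5.34 and 5.77 in young quiescent, vehicle and PRI-724 cells and 7.68, 5.07 and 5.66 in old ones. Tat, tyrosine aminotransferase, stood at 5.39, 4.71 and 5.04 in young quiescent, vehicle and PRI-724 cells and 7.54, 5.21 and 5.25 in old ones. In both, a single array was clearly higher than the rest, old quiescent. Cyp1a2, which oxidises caffeine, stood at 5.22, 5.11 and 5.46 in young quiescent, vehicle and PRI-724 cells and 8.44, 6.92 and 6.84 in old ones and was the enzyme whose old arrays all lay above its young arrays among the 6 tested. Cps1, the first enzyme of the urea cycle, Cyp3a11, a drug-oxidising cytochrome, and Fabp1, the fatty acid binding protein of liver, had quiescent age differences of 1.42, 1.37 and 2.33. Cyp3a11 is also named by 2 probe sets that give further genes, which were not used. The major urinary protein genes resembled the antitrypsins. Mup3 stood at 7.38, 5.33 and 6.44 in young quiescent, vehicle and PRI-724 cells and 11.70, 7.97 and 8.95 in old ones and Mup20 at 6.57, 4.43 and 6.39 in young quiescent, vehicle and PRI-724 cells and 9.89, 7.34 and 8.29 in old ones. The age difference of Mup3 between the quiescent arrays was 4.32, or 20.0-fold.

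Lists of other liver cells differed between the same quiescent arrays, and their part in the result was not tested. The 34 hepatocyte genes had a mean log2 signal of 5.67 on the young and 8.58 on the old quiescent array. For the 13 markers of sinusoidal endothelium, the lining of the liver capillaries, it was 9.57 and 8.13, and 9 of them were at least 2-fold lower in old cells. Lyve1, a hyaluronan receptor of that lining, stood at 12.30 and 8.83. For 14 macrophage markers it was 8.37 and 9.23, with 4 at least 2-fold higher and 1 at least 2-fold lower in old cells. Median old minus young differences of tested genes were -1.47 for endothelium, 0.65 for macrophages, 0.07 for stellate cells, 0.49 for myofibroblasts, 0.00 for cholangiocytes, -0.11 for mesothelium and -0.50 for lymphocytes and neutrophils. The hepatocyte list thus had the highest median of these cell types in quiescent cells, among lists chosen with earlier results of these data known.

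**Figure D2:**
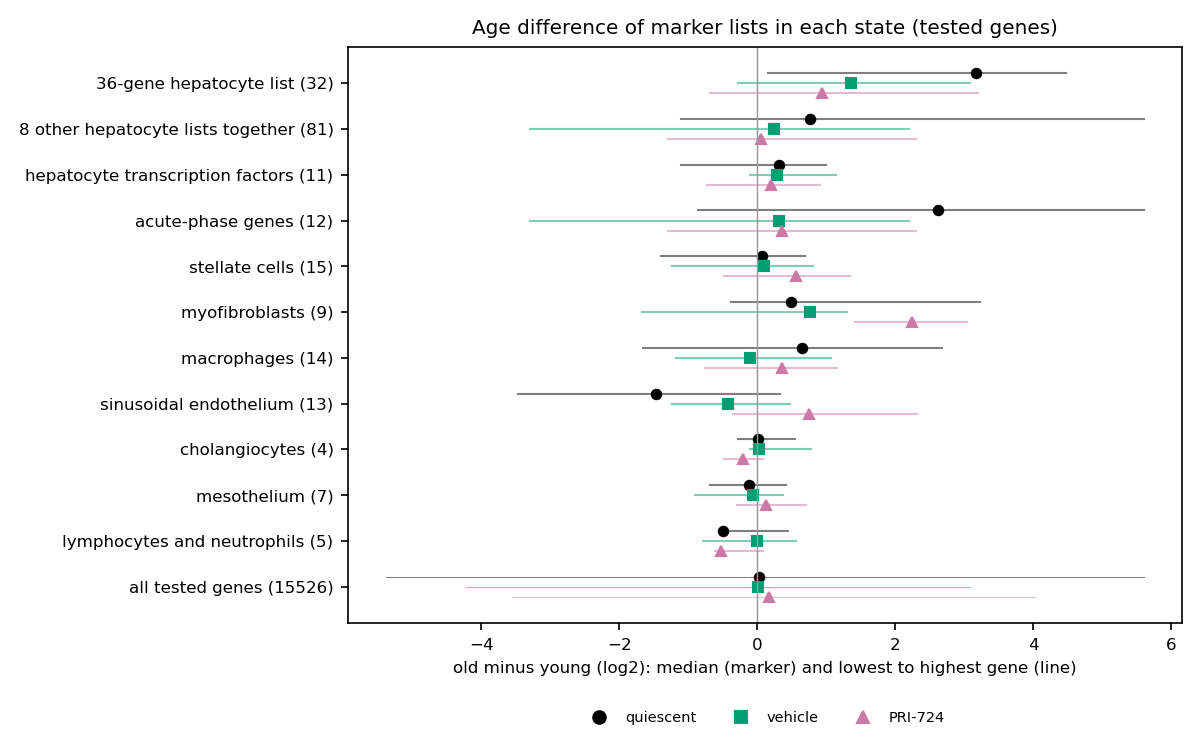
Old minus young difference in log2 signal (x axis) for lists of marker genes (y axis, number of tested genes in brackets) in quiescent, vehicle and PRI-724 cells. Markers give the median and lines run from the lowest to the highest gene. The quiescent median is 3.17 for the 36-gene hepatocyte list and 0.03 for all tested genes.

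In activated cells the age difference was smaller and split the hepatocyte genes. On vehicle arrays 21 of 34 genes were at least 2-fold higher in old cells (20 of 32 tested, against 1.15% of all tested genes), and 0 were at least 2-fold lower (against 1.79%). The median of the tested members was 1.37. On PRI-724 arrays 16 of 34 were at least 2-fold higher (15 of 32 tested, against 5.46%) and 0 at least 2-fold lower (against 1.96%), with a median of 0.94, where the median of all tested genes was 0.17. The quiescent difference was the largest of the 3 for 32 of 34 genes, the exceptions being Alb and Apoc3. At least 2-fold higher in old cells in all 3 states were 16 of 34 (15 of 32 tested, against 0.264%). The PRI-724 age difference was larger in another list. There 9 of 9 tested myofibroblast markers were at least 2-fold higher in old cells (against 5.46%), with a median of 2.25. The medians were 0.75 for endothelium, 0.57 for stellate cells, 0.37 for macrophages, 0.13 for mesothelium, -0.21 for cholangiocytes and -0.52 for lymphocytes and neutrophils. On vehicle arrays the myofibroblast median was 0.76.

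Of the 21 genes that kept a 2-fold age difference with vehicle, 20 are for secreted proteins. So are 7 of the 13 genes that did not keep it. Those that kept it were 6 of 6 carriers, 5 of 6 clotting and kinin genes and 5 of 8 inhibitors. The rest were both major urinary proteins, 2 of 5 apolipoproteins (Apoa1 and Apob) and 1 of 7 enzymes, Cyp1a2. The largest vehicle differences were 3.08 for Serpina1c, 3.05 for Alb and 2.95 for Serpina1d. The 13 genes without it ran from 0.99 for Cyp3a11 to -0.27 for Hpd. Itih4 at 1.12 and Fgg at 1.15 lay just above the 2-fold limit of 1 log2 unit, and Cyp3a11 at 0.99 and Fabp1 at 0.95 just below it. A large quiescent difference did not always go with a vehicle difference. Cyp2e1 had a quiescent age difference of 4.23 and a vehicle difference of -0.13, and Vtn had 3.20 and 0.59. Itih2, with a quiescent difference of 1.39, kept 1.29. These are values of single arrays and the split was not tested.

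**Figure D3:**
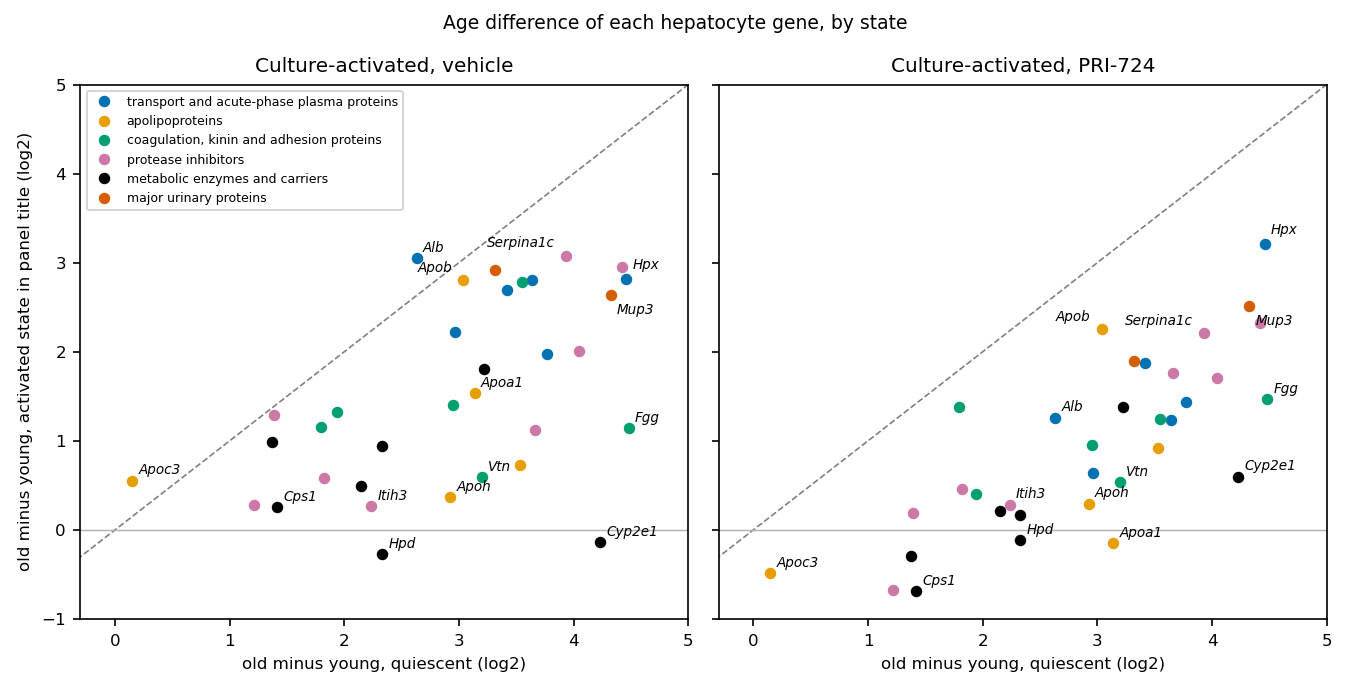
Old minus young difference in log2 signal of each of the 34 hepatocyte genes, in quiescent cells (x axis) against vehicle cells (left, y axis) or PRI-724 cells (right, y axis), coloured by role. On the dashed line the differences are equal. All but 2 genes lie below it with vehicle, and Cyp2e1 is at 4.23 in quiescent and -0.13 in vehicle cells.

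Over the 3 states together the age difference was tested with limma, on a model with age and state. Its error is the disagreement of the age difference between states. With 1 array for each age and state, this error does not measure the spread between separate pools of mice of the same age. A gene that rose with age is one higher on the old arrays in this model. Of 32 tested members 13 rose with age and 0 fell (adjusted p of 0.05), against 0.264% of all tested genes that rose and 0.251% that fell. The median was 1.86, beside 0.04 for all tested genes, and 28 members had an unadjusted p under 0.05. These 13 genes made up 31.7% of the 41 genes that rose on the whole array, and 40.6% of the tested members. Hpx rose by 3.49 ± 0.31 log2 units (SE, n = 3 pairs, adjusted p = 0.00512), Serpina1d by 3.23 ± 0.35, Mup3 by 3.16 ± 0.34 and Serpina1c by 3.07 ± 0.31. Mup20 rose by 2.71 ± 0.29, Apob by 2.70 ± 0.24 and Ambp by 2.66 ± 0.28. The other genes that rose were Pzp at 2.59, Ahsg at 2.56, Fgb at 2.53, Hp at 2.39, Alb at 2.31 and Cyp1a2 at 2.14. By role these are 5 of 6 carriers, 3 of 8 inhibitors, both major urinary proteins, and 1 each of 5 apolipoproteins, 5 clotting genes and 6 enzymes.

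The members that did not pass included genes with a difference mainly in quiescent cells and genes with a small one throughout. Fgg stood at 2.36 ± 0.52 (adjusted p = 0.104), Itih4 at 2.18 ± 0.40 (adjusted p = 0.0571), Ttr at 1.94 ± 0.38 (adjusted p = 0.0691) and Cyp2e1 at 1.56 ± 0.64 (adjusted p = 0.432). The smallest were Cps1 at 0.33 ± 0.34, Itih1 at 0.27 ± 0.31 and Apoc3 at 0.07 ± 0.24. Without regard to size, 27 of 34 genes were higher in old cells in all 3 states (25 of 32 tested, against 21% of all tested genes), and for 21 of 34 every old array lay above every young array (19 of 32 tested, against 5.73%). The exceptions to the first count were Apoa1, Apoc3, Itih1, Cps1, Cyp2e1, Cyp3a11 and Hpd. With cyclic loess between the arrays 0 members passed, at a median of 1.82 and a smallest adjusted p of 0.0523, and 2 genes rose on the whole array. The count was also 0 without the young or the old PRI-724 array (smallest adjusted p of 0.134 and 0.136), and 25 without either vehicle array.

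The second comparison set vehicle-treated activated cells against quiescent cells. In both ages the hepatocyte genes were lower after culture. All 34 genes with a probe set were lower in both ages, as were 32 of 32 tested members against 33.4% of all tested genes, except that Hpd in young cells turned to 0.032 after quantile normalization. At least 2-fold lower in both ages were 12 (12 of 32 tested, against 1.15%), namely Alb, Hpx, Ambp, Ahsg, Apoa1, Fgb, Serpina1c, Serpina1d, Serpinc1, Pzp, Mup3 and Mup20. In young cells 12 of 32 tested members were at least 2-fold lower (against 3.74%) with a median of -0.86, and in old cells 30 of 32 (against 2.77%) with a median of -2.49. The young vehicle array was the lowest of the 6 for 31 of 34 genes (29 of 32 tested, against 17.3%). There, 15 of 34 genes lay under the signal limit, against 4 on the young quiescent and 4 on the old vehicle array.

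With both ages in 1 model, 11 of 32 tested members fell and 0 rose (limma, adjusted p of 0.05), against 1.26% of all tested genes that fell and 4.61% that rose. The median was -1.77, beside 0.04 for all tested genes, and 29 members had an unadjusted p under 0.05. Serpina1c fell by 3.20 ± 0.38 log2 units (SE, n = 2 pairs, adjusted p = 0.00408). Mup3 stood at -2.89 ± 0.42 (adjusted p = 0.00757), Serpina1d at -2.60 ± 0.43 and Ahsg at -2.57 ± 0.47. Mup20 stood at -2.35 ± 0.36, Pzp at -2.26 ± 0.48 and Alb at -2.09 ± 0.38 (adjusted p = 0.0155). Serpinc1 at -1.92, Hpx at -1.83, Ambp at -1.79 and Fga at -1.67 (adjusted p = 0.045) completed the genes that fell. By role these are 4 of 6 carriers, 4 of 8 inhibitors, both major urinary proteins and 1 of 5 clotting genes, with 0 of 5 apolipoproteins and 0 of 6 enzymes. Of the 11, 2 (Fga and Serpinc1) passed the signal limit only through the old quiescent array, and of the 29 members not so placed 9 fell.

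Some large differences that did not pass belonged to genes whose ages disagreed. Cyp2e1 stood at -2.92 ± 0.79 (adjusted p = 0.0611), made of -0.74 in young and -5.11 in old cells (1.67-fold and 34.4-fold). Apoa2 stood at -2.19 ± 0.57 (adjusted p = 0.0534), Vtn at -2.14 ± 0.55 and Apoh at -2.09 ± 0.54 (both adjusted p = 0.0518). The smallest were Cyp1a2 at -0.82 ± 0.40, Itih2 at -0.65 ± 0.32 and Apoc3 at -0.61 ± 0.29. The number that fell was 5 after cyclic loess, 3 after quantile normalization and 7 of 28 without the Serpina1 and Mup copies. It was 5 without either PRI-724 array, 6 without the old quiescent, 21 without the young vehicle and 29 without the young quiescent array.

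The vehicle minus quiescent difference was further below 0 in old cells for 32 of 34 genes (30 of 32 tested, against 52% of all tested genes). This count rests on the same old quiescent array as the age difference above, and with 1 array in each group the difference between ages cannot be tested. The exceptions were Alb, at -2.30 in young and -1.88 in old cells, and Apoc3, at -0.81 and -0.40. Serpina1c stood at -2.77 in young and -3.62 in old cells, Mup20 at -2.15 and -2.55, and Apob at -0.88 and -1.11, so that the ages lay within 1 log2 unit of each other. At the other end Hpd stood at -0.01 and -2.61, Fgg at -0.38 and -3.71, and Itih3 at -0.20 and -2.17. On the young quiescent array Hpd, Fgg and Itih3 were dim, at 5.36, 4.28 and 5.26, and Fgg lay under the signal limit of 4.70. Serpina1c, Mup20 and Apob began there at 6.71, 6.57 and 5.75. Ambp, which began at 4.96, still had a difference of -1.43 in young cells. Whether a low starting signal limited the young differences was not tested. After culture 24 of 34 genes were still higher on the old vehicle array than on the young quiescent one (22 of 32 tested, against 53.8% of all tested genes). Over the same step the mean log2 signal of the 9 myofibroblast markers went from 6.49 to 9.00 in young and from 7.14 to 9.44 in old cells, and that of macrophage markers from 8.37 to 8.80 and from 9.23 to 8.65.

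**Figure D4:**
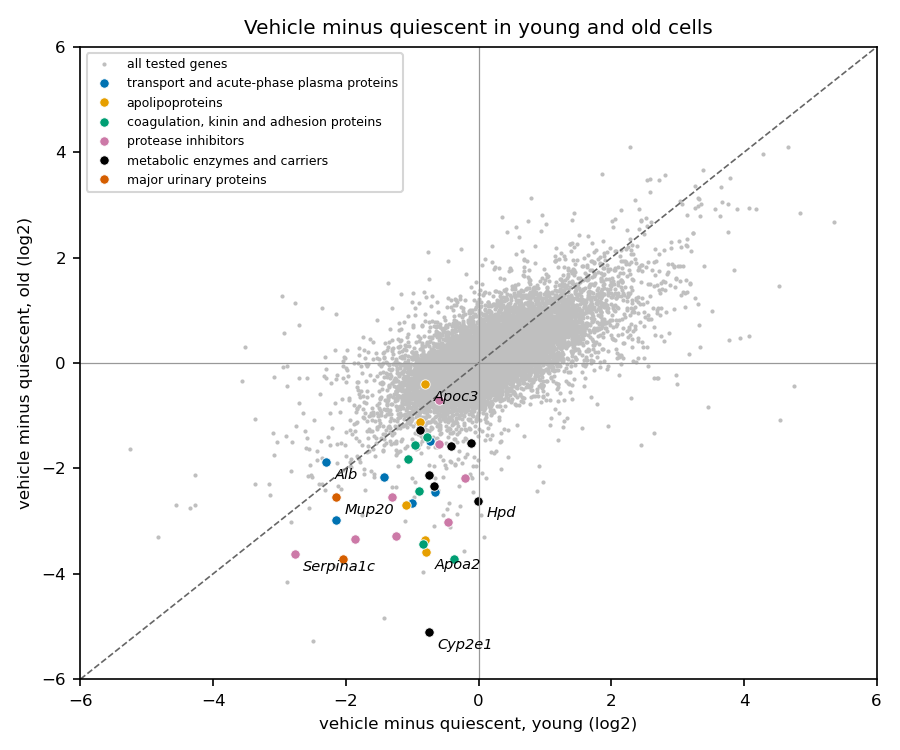
Vehicle minus quiescent difference in log2 signal in young cells (x axis) and old cells (y axis). Grey points are all 15526 tested genes, coloured points the 34 hepatocyte genes with a probe set by role, and the dashed line marks equal differences. All coloured points lie below 0 on both axes and 32 lie below the dashed line, with Cyp2e1 lowest at -5.11 in old cells.

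The third comparison asked whether PRI-724 moved these genes in activated cells. Against vehicle, 0 of 32 tested members rose and 0 fell (limma, adjusted p of 0.05), where 0.271% of all tested genes rose and 1.93% fell. The median was 0.57, made of 0.86 in young and 0.40 in old cells, and 7 members had an unadjusted p under 0.05, all 7 upward. On the young arrays all 34 genes were higher with PRI-724 than with vehicle (32 of 32 tested, against 42.2% of all tested genes), and on the old arrays 23 of 34 were (22 of 32, against 48.6%). At least 2-fold higher were 11 of 34 in young cells (11 of 32 tested, against 3.95%) and 1 of 34 in old cells (1 of 32, against 0.721%). That gene was Cyp2e1 at 1.39, and Mup3 and Hpx stood at 0.98 and 0.92. Ttr, Apoa1, Apoc3, Fgb, F2, Itih1, Itih2, Cps1, Cyp3a11, Cyp1a2 and Fabp1 were lower with PRI-724 than with vehicle in old cells, of which Itih1 changed sign after cyclic loess and Itih1 and F2 after quantile normalization. In young cells the largest differences were 2.19 for Ahsg, 1.97 for Mup20 and 1.94 for Alb.

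Signal strength moved with the young difference, and its part in the result was not tested. Between the young arrays the median of PRI-724 minus vehicle was 0.37 over the 3882 dimmest tested genes and -0.42 over the 3882 brightest. The 6 members among the dimmest had a median of 0.78, and the 4 among the brightest had 0.94. Between the old arrays the same members had medians of 0.15 and 0.94, while both sets of all genes were at 0.00. Macrophage and endothelial markers went the other way in the same samples. The medians of their differences from vehicle were -2.81 and -3.28 in young cells and -2.29 and -2.14 in old cells. Without the young PRI-724 array the members' median against vehicle was -0.02, and without the old one 1.19.

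Against quiescent cells, PRI-724 arrays differed by age. In young cells all 34 genes were within 1 log2 unit of their quiescent level (32 of 32 tested, against 88.7% of all tested genes), with a median of -0.05 over the tested members. After quantile normalization the lowest young value was -1.05, just past that unit. In old cells the median was -2.10, with 31 of 34 at least 2-fold lower (30 of 32 tested, against 3.73%). Of 32 tested members 2 fell and 0 rose (limma, adjusted p of 0.05), against 2.43% of all tested genes that fell and 1.28% that rose. Mup3 fell by 1.85 ± 0.42 (SE, n = 2 pairs, adjusted p = 0.0418) and Serpina1c by 1.77 ± 0.38 (adjusted p = 0.0349), and 20 members had an unadjusted p under 0.05. Lower than quiescent in both ages were 20 of 34 (18 of 32 tested, against 24.9%), and in young cells the sign of Apoa2 turned after either normalization, that of Cps1 and Mup20 after cyclic loess and that of Apob after quantile normalization. The count was 0 after cyclic loess, after quantile normalization, and without the old quiescent, the young PRI-724 or the old PRI-724 array. It was 25 without the young quiescent, 14 without the young vehicle and 13 without the old vehicle array.

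Further hepatocyte genes were read from 8 other lists with 113 genes on the array, of which 81 were tested. They moved less than the 36-gene list, and all these lists were chosen with earlier results of these data known. Between the quiescent arrays 34 of 81 were at least 2-fold higher in old cells and 1 was lower (against 3.16% and 2.98% of all tested genes), with a median of 0.77. With culture 7 fell and 0 rose (against 1.26% and 4.61% of all tested genes), with a median of -0.58. Over the 3 states 3 rose with age (against 0.264%), namely Saa2, Abcc2 and Rbp4, the last named after its value was seen. Saa2, a serum amyloid A carried by high-density lipoprotein in the acute phase, stood at 4.71, 3.28 and 4.67 in young quiescent, vehicle and PRI-724 cells and 10.32, 5.47 and 6.97 in old ones. It fell by 3.14 ± 0.67 with culture and rose by 3.37 ± 0.54 with age (adjusted p = 0.0267 and 0.0318). Abcc2, the canalicular exporter of conjugated bilirubin, stood at 5.45, 5.31 and 5.78 in young quiescent, vehicle and PRI-724 cells and 8.02, 7.24 and 7.002 in old ones and rose by 1.90 ± 0.27 with age (adjusted p = 0.0198). In old cells its vehicle minus quiescent difference was -0.78, against -4.85 for Saa2.

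The acute-phase list was the most like the plasma proteins in quiescent cells, with a median age difference of 2.62 over 12 tested genes and 7 of 12 at least 2-fold higher in old cells. Of these 12 genes 5 fell with culture and 1 rose with age. For the counts in this paragraph, 1.26% of all tested genes fell with culture and 0.264% rose with age. At least 2-fold higher in old quiescent cells were 3.16% of all tested genes. Serpina3n, an inhibitor of chymotrypsin-like proteases, fell by 2.92 ± 0.26 with culture (adjusted p = 0.00264), from 8.27 to 5.45 in young and from 8.80 to 5.79 in old cells, and did not share the age difference. Of 15 complement and clotting genes 1 fell with culture, C6 of the membrane attack complex, at -1.79 ± 0.28 (adjusted p = 0.00914), and 8 were at least 2-fold higher in old quiescent cells. Plg, plasminogen, stood at 5.38, 5.05 and 5.43 in young quiescent, vehicle and PRI-724 cells and 8.20, 5.33 and 5.65 in old ones. Of 10 further carriers and apolipoproteins 1 fell with culture, Apoc1 at -2.06 ± 0.40 (adjusted p = 0.0203), and 5 were at least 2-fold higher in old quiescent cells. Enzyme lists had 0 genes past the threshold with culture or age, which for so few genes is near the shares of all tested genes. At least 2-fold higher in old quiescent cells were 4 of 10 amino acid and urea cycle enzymes, 3 of 10 cytochromes and detoxifying enzymes and 4 of 8 enzymes of sugar and lipid metabolism. Ces3a, a carboxylesterase, stood at 4.95, 4.52 and 4.40 in young quiescent, vehicle and PRI-724 cells and 8.19, 5.07 and 5.20 in old ones.

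The transcription factors of hepatocytes showed little of this pattern. Of 11 tested, 0 passed the threshold with culture or age (limma). With culture 1.26% of all tested genes fell and 4.61% rose, and with age 0.251% fell and 0.264% rose. At such shares, 0 of 11 does not set these factors apart from all tested genes. At an unadjusted limma p under 0.05, 1 fell with culture and 3 rose with age (1045 and 1112 of all 15526 tested genes). Against quiescent cells 1 of the 11 fell with PRI-724 (against 2.43% of all tested genes), Cebpa, by 1.23 ± 0.29 (limma, adjusted p = 0.0491). Between the quiescent arrays 0 were at least 2-fold higher in old cells and 1 was lower (against 3.16% and 2.98% of all tested genes), with a median of 0.32. Hnf4a, the factor named for the hepatocyte nuclear programme, stood at 5.92, 5.43 and 6.12 in young quiescent, vehicle and PRI-724 cells and 6.64, 6.57 and 6.42 in old ones. Cebpa stood at 6.97, 6.63 and 5.78 in young quiescent, vehicle and PRI-724 cells and 7.96, 6.92 and 6.70 in old ones. Foxa3 stood at 6.06, 5.87 and 5.85 in young quiescent, vehicle and PRI-724 cells and 5.82, 6.05 and 6.08 in old ones. Old and young values of Hnf4a did not overlap, but its age difference of 0.72 ± 0.23 had an adjusted p of 0.290, and Foxa3 was level across the arrays.

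Among themselves most tested members had like profiles across the 6 arrays. Old quiescent was the highest array for 31 of 32 (against 11.8% of all tested genes), and the correlations lean on that array. The Pearson correlation of a member with the mean of the others was 0.999 for Fga and 0.993 for Pzp, and lowest for Apoc3 at 0.568, Cps1 at 0.798 and Itih1 at 0.800. Fga, Fgg (0.975) and Serpinc1 (0.938) passed the signal limit only through the old quiescent array, which was also the highest of the members' mean profile at 8.76. Their correlations are therefore no independent sign of a shared profile. These correlations describe 6 arrays that share 1 processing, and have no test. Other tested genes with a range of at least 2 log2 units were ranked by their correlation with the members' mean profile. Predicted genes, small RNAs, histone, immune receptor segment, olfactory and vomeronasal genes were left out first, which left 1142. The 10 closest of these were Orm1 (r = 0.996), Tfr2, Saa2, Cpn1, Serpina1e, Mug1, F12, Azgp1, Fjx1 and Orm2 (r = 0.969). Serpina1e is a further Serpina1 copy and may share probes with the members. Orm1 and Orm2 encode orosomucoid, an acute-phase carrier, Tfr2 the transferrin receptor 2 and Cpn1 a carboxypeptidase of plasma. Of the 10, 6 belong to the 8 other hepatocyte lists. Mug1, a murinoglobulin, stood at 4.73, 3.90 and 5.13 in young quiescent, vehicle and PRI-724 cells and 8.95, 4.99 and 5.90 in old ones. Its old quiescent value was the highest and its young vehicle value the lowest, as in the members.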

How the data were processed

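The data are 6 Affymetrix arrays, 1 for each age and state. Per the submitters' processing notes, the authors used Affymetrix Expression Console and RMA for the deposited log2 values, and RNA was labelled with the GeneChip WT PLUS kit, per the labels' protocols. Their versions are not given here. From these values 23521 of 41345 probe sets named 1 gene, 1814 several and 16010 none. The brightest probe set stood for a gene, and the 30% of genes with the lowest mean (under 4.70) were left out of tests. limma 3.58.1 in R 4.3.3 fitted age and state to all 6 arrays with an intensity trend (residual df of 2, prior df of 7.76) and Benjamini-Hochberg adjustment over 15526 genes at 0.05. The error is the disagreement between ages over the 3 states, and n counts pairs of arrays. Whether the arrays differ by more than technical spread cannot be told without replicates. The model was tested on simulated data.

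The 36 genes, the other lists and the rules for naming genes (up to 4 of each list with the largest vehicle minus quiescent difference, some factors, and the 10 genes closest in profile) were chosen with earlier results of these data known. Promoter windows came from RefSeq's table for GRCm38.p6, by symbol for 28 genes, and all 34 genes were matched to RefSeq genes by Entrez ID. Alternatives were no filter, a filter of 50%, the mean of all probe sets, no intensity trend, no block, cyclic loess, quantile normalization, no Serpina1 and Mup copies, each array left out in turn, and 1.5-fold as the limit. Figures used Python 3.11.15, pandas 2.3.3 and matplotlib 3.10.9.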

Additional observations from a re-analysis of the deposited data

How the results depend on the processing

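With 1 array in each group, every test rests on 2 residual degrees of freedom, and no count of calls is firm. Of 32 tested members 11 fell from quiescent to vehicle, 2 fell from quiescent to PRI-724, 0 differed between PRI-724 and vehicle, and 13 rose with age. In that order these counts were 0, 0, 0 and 0 with no block in the model, 5, 0, 0 and 0 after cyclic loess, 3, 0, 0 and 1 after quantile normalization, and 7, 0, 0 and 9 without the Serpina1 and Mup copies. Leaving out 1 array gave 5 to 29, 0 to 25, 0 to 6 and 0 to 25. The medians kept their sign under these settings, with vehicle minus quiescent from -2.56 to -0.73 when 1 array was left out, except that PRI-724 minus vehicle ran from -0.018 without the young PRI-724 array to 1.19 without the old one. Over all tested genes, cyclic loess left 2 that rose with age and 5 that fell, against 41 and 39. At a 1.5-fold limit 26 in place of 12 tested members were lower with vehicle in young cells. With both ages in the model no tested member changed direction in vehicle minus quiescent under these settings; in young cells alone Hpd turned from -0.011 to 0.032 after quantile normalization. In the age comparison some uncalled genes did when 1 array was left out, with lowest values of -0.17 for Apoc3 (highest 0.35), -0.20 for Itih1 (highest 0.75), -0.21 for Cps1 (highest 0.84) and -0.20 for Hpd (highest 1.11). The causes were not tested. The model pairs arrays by age and by state. The labels give no replicate numbers, so there was no further block to fit.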
